A study of Mus musculus with 15 samples.

Results

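The mRNAs of 6 hepatocyte proteins, 5 of them secreted and 1 tethered to the cell surface, and of 2 repressors of one of them were followed in the livers of newborn mice. Alb, Ahsg, Ttr and Trf encode plasma proteins of the mature liver, Afp and Gpc3 mark the fetal liver, and Zbtb20 and Zhx2 encode repressors of Afp. The members were the non-control array probes named for these 8 genes, 10 probes of 55681, and the probe with the highest mean signal stood for its gene. Of the 8 genes, 7 were measurable and entered a test over 27554 genes or single-probe transcripts, while Zhx2 was at background.

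Each of 15 arrays held the liver RNA of 1 C57BL/6J pup on postnatal day 1, hybridised in 1 colour. Hypoglycaemic KO pups (n = 7) and normoglycaemic KO pups (n = 3) carried, on the chromosome from their mother, a deletion of the microRNA cluster miR-379/miR-410, and wild-type littermates (n = 5) served as controls. Blood glucose was 9 to 33 mg/dl in hypoglycaemic KO pups, 44 to 56 mg/dl in normoglycaemic KO pups and 50 to 72 mg/dl in wild-type pups, and the design text calls the normoglycaemic KO pups mildly hypoglycaemic. The labels number the pups within groups but name no litters, so p-values measure the spread between these pups.

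The fetal liver makes alpha-fetoprotein and albumin from neighbouring genes of one family. After birth the Afp gene is shut down, in mice under the repressors Zbtb20 and Zhx2, while Alb stays active. Albumin, the alpha-2-HS-glycoprotein of Ahsg (fetuin-A), the iron carrier transferrin of Trf and the thyroid hormone and retinol-binding protein carrier transthyretin of Ttr then make up much of the protein that hepatocytes release into the blood.

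The promoters of Alb and Afp are shown because the ratio of their mRNAs is compared further on. Each is the 250 bases before the start that RefSeq gives on GRCm38.p6, on the plus strand, at chr5:90460620-90460869 for Alb and chr5:90490464-90490713 for Afp. Capitals mark GTTAAT and GTTAAC, variants of the half-site bound by HNF1 factors, which activate liver genes.
Alb: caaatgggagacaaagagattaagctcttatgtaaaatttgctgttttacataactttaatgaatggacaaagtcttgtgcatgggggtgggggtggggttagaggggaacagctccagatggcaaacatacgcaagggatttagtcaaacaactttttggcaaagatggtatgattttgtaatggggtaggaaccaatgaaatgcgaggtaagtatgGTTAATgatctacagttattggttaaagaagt
Afp: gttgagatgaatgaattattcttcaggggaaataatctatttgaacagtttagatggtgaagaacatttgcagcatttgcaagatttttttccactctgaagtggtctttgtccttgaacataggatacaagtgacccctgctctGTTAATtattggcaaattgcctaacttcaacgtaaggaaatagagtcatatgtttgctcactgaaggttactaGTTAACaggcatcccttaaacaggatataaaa
The Alb promoter held 1 such match, with its first base 32 bases before the start, and the Afp promoter held 2, at 105 and 32 bases before it. Either motif, on either strand, was found in 8.75% of 32851 promoters of the same length. A promoter was given for 5 of the 8 genes. The 2 array probes below, given by the array files, are those whose signal stood for Alb and Trf, at chr5:90901598-90901657 on the plus strand and chr9:103112826-103112885 on the minus strand of mm9.
Alb probe: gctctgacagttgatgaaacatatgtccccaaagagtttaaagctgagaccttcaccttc
Trf probe: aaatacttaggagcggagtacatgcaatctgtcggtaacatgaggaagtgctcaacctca

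A level is the base-2 logarithm of a probe's processed signal minus that of the 75th percentile of its array, so that 0 means as bright as that percentile. The 75th percentile lay between 663 and 912 signal units, and 57.9 to 76.2% of non-control probes were well above background. The 10 hepatocyte markers, Alb and Ttr among them, summed to 2554 to 2932 times the 75th percentile in hypoglycaemic KO, 2454 to 2690 times in normoglycaemic KO and 2366 to 2862 times in wild-type livers. The 11 measured pancreas acinar markers summed to 935, 166 and 129 times that percentile in normoglycaemic KO replicate 2, hypoglycaemic KO replicate 3 and wild-type replicate 2, against 10.04 to 38.4 times in the other 12 arrays. Mirg, a long non-coding RNA of the same imprinted domain as the deletion, had a level of 0.66 in the library labelled hypoglycaemic KO replicate 2. Its levels were −3.02 to −1.23 in the other 6 hypoglycaemic KO, −2.80 to −2.68 in the normoglycaemic KO and 0.88 to 1.60 in the wild-type livers, so this library did not match its label by that transcript. Fewer hepatocytes and less RNA per hepatocyte cannot be told apart in such whole-liver RNA.

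**Figure D1:**
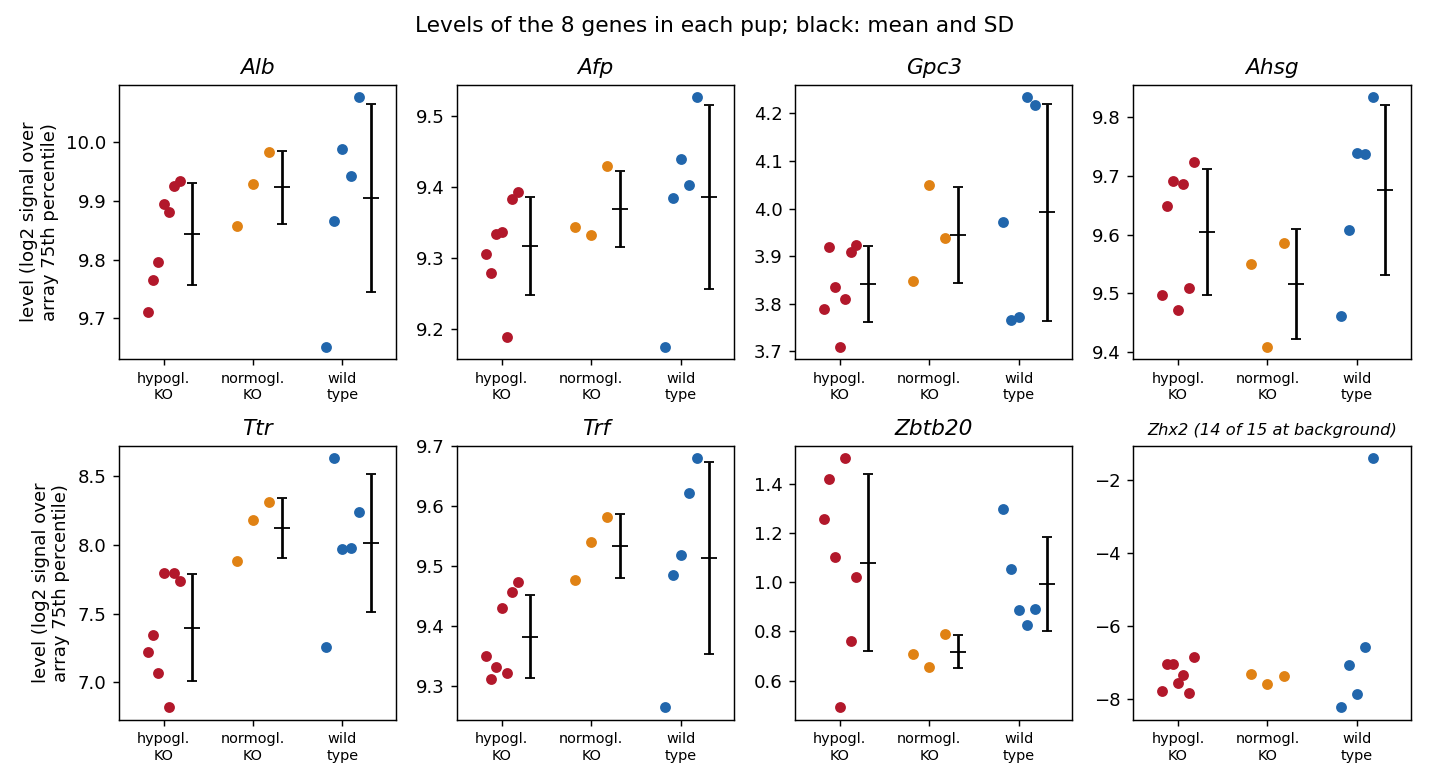
Levels of the 8 genes (log2 signal over the array's 75th percentile), 1 point per pup, with the mean and SD of hypoglycaemic KO (n = 7), normoglycaemic KO (n = 3) and wild-type pups (n = 5) in black, each panel on its own axis. Ttr lay between 7.89 and 8.31 in normoglycaemic KO pups, above all 7 hypoglycaemic KO pups, and 14 of 15 arrays held Zhx2 at background.

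Among the plasma proteins of the mature liver, no difference in Alb passed the test. Its levels were 9.71, 9.77, 9.80, 9.89, 9.88, 9.92 and 9.93 in hypoglycaemic KO livers, 9.86, 9.93 and 9.98 in normoglycaemic KO livers, and 9.65, 9.87, 9.99, 9.94 and 10.08 in wild-type livers. All 3 groups overlapped, and wild-type replicate 1 was lowest of all. The difference of hypoglycaemic KO from wild-type livers was −0.06 ± 0.08 (SE, log2; 95% interval −0.22 to 0.10; adjusted p = 0.703, limma). That of normoglycaemic KO from wild-type livers was 0.02 ± 0.10 (95% interval −0.19 to 0.22, limma adjusted p = 0.999). In fold terms the first interval spans a scaled Alb signal of 0.856 to 1.07 times that of wild-type livers. Whether the brightness of the probe limits this signal as a measure of the mRNA was not tested.

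Ahsg, whose product fetuin-A keeps calcium phosphate in solution, had levels of 9.50, 9.65, 9.69, 9.47, 9.69, 9.51 and 9.72 in hypoglycaemic KO livers, 9.55, 9.41 and 9.59 in normoglycaemic KO livers, and 9.46, 9.61, 9.74, 9.74 and 9.83 in wild-type livers. The normoglycaemic KO livers had the lowest mean, with 1 of the 3 below all wild-type livers. Differences were −0.07 ± 0.08 (SE; adjusted p = 0.655) for hypoglycaemic KO and −0.16 ± 0.10 (adjusted p = 0.965) for normoglycaemic KO against wild-type livers by limma.

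Trf, the iron carrier, had levels of 9.35, 9.31, 9.33, 9.43, 9.32, 9.46 and 9.47 in hypoglycaemic KO livers, 9.48, 9.54 and 9.58 in normoglycaemic KO livers, and 9.27, 9.49, 9.52, 9.62 and 9.68 in wild-type livers. All 7 hypoglycaemic KO livers lay below the 3 normoglycaemic KO livers, by a small margin, but overlapped the wild-type livers. The difference was −0.15 ± 0.09 (SE) from normoglycaemic KO (adjusted p = 0.358) and −0.13 ± 0.07 from wild-type livers (adjusted p = 0.351, limma). A dimmer Trf probe gave −0.01 and −0.09 for the same contrasts, so the gap to the normoglycaemic KO livers rested on 1 of 2 probes.

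Ttr had the largest differences among the members in the comparisons of hypoglycaemic KO with either other group, and they did not pass the test over all genes. Its levels were 7.22, 7.35, 7.07, 7.80, 6.82, 7.79 and 7.74 in hypoglycaemic KO livers, 7.89, 8.18 and 8.31 in normoglycaemic KO livers, and 7.26, 8.63, 7.97, 7.98 and 8.24 in wild-type livers. All 7 hypoglycaemic KO livers lay below all 3 normoglycaemic KO livers and below the wild-type mean, and 3 of the 7 lay below every wild-type liver. Hypoglycaemic KO livers averaged 7.40 ± 0.39 (SD, n = 7) and wild-type livers 8.02 ± 0.50 (SD, n = 5), a difference of −0.62 ± 0.23 (SE, log2; 95% interval −1.11 to −0.13), or 1.53-fold lower. The unadjusted p of 0.0169 became an adjusted p of 0.172 (limma).

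Wild-type replicate 1, the lowest wild-type library for Ttr, had the lowest Alb, Afp, Ahsg and Trf levels among the wild-type livers too. Its array also had the highest 75th percentile (912 signal units), by which the levels are divided. Before scaling, its Ttr signal (139898) was the lowest among the wild-type livers, but its Ahsg signal (643148) was the highest. Its unscaled Alb, Afp and Trf signals were not the lowest. Without it the Ttr difference between hypoglycaemic KO and wild-type livers was −0.81 (adjusted p = 0.0535, limma). Without the 3 libraries richest in pancreas markers, which include the highest wild-type Ttr value, it was −0.41 (adjusted p = 0.510, limma). The part of the pancreas markers in the result was not tested beyond that. Without the library labelled hypoglycaemic KO replicate 2 it was −0.61. Against normoglycaemic KO livers the Ttr difference of hypoglycaemic KO livers was −0.73 ± 0.27 (SE; 95% interval −1.30 to −0.15; adjusted p = 0.166, limma). The 6 measured intestine markers summed to 3.805 to 14.3 times the 75th percentile in hypoglycaemic KO, 15.4 to 23.1 times in normoglycaemic KO and 9.15 to 27.6 times in wild-type livers. The 11 granulocyte markers summed to 805 to 1038, 685 to 937 and 786 to 875 times it in the same order of groups. Their part in the Ttr differences was not tested. Normoglycaemic KO livers differed from wild-type livers by 0.11 ± 0.28 (adjusted p = 0.996), and by −0.08 without wild-type replicate 1.

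Afp, the fetal albumin relative, passed in no comparison of the groups. Its levels were 9.31, 9.28, 9.33, 9.34, 9.19, 9.38 and 9.39 in hypoglycaemic KO livers, 9.34, 9.33 and 9.43 in normoglycaemic KO livers, and 9.17, 9.38, 9.44, 9.40 and 9.53 in wild-type livers. The groups overlapped, with the lowest and the highest value both in wild-type livers. The difference from wild-type livers was −0.07 ± 0.07 (SE; 95% interval −0.21 to 0.07; adjusted p = 0.612) in hypoglycaemic KO and −0.02 ± 0.08 (95% interval −0.20 to 0.16; adjusted p = 0.999) in normoglycaemic KO livers by limma. In fold terms the hypoglycaemic KO interval spans 0.863 to 1.05 times the wild-type level.

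Gpc3, which encodes a heparan sulphate proteoglycan of the fetal hepatocyte surface, had levels of 3.79, 3.92, 3.83, 3.71, 3.81, 3.91 and 3.92 in hypoglycaemic KO livers. The levels were 3.85, 4.05 and 3.94 in normoglycaemic KO livers, and 3.97, 3.77, 3.77, 4.23 and 4.22 in wild-type livers. The hypoglycaemic KO livers lay close together, with 1 of 7 below all wild-type livers and the other 6 in the lower part of the wild-type range. Their mean differed from wild type by −0.15 ± 0.09 (SE, adjusted p = 0.403, limma), and that of normoglycaemic KO by −0.05 ± 0.12 (adjusted p = 0.996). A second Gpc3 probe was well above background in 0 of 7 hypoglycaemic KO, 2 of 3 normoglycaemic KO and 1 of 5 wild-type livers, too near background for a level. When both probes were averaged, Gpc3 gave −0.75 for hypoglycaemic KO and 0.18 for normoglycaemic KO against wild type. For hypoglycaemic against normoglycaemic KO the average gave −0.93. The second probe passed the filter of 3 arrays through normoglycaemic KO and wild-type livers only. Such a filter favours low hypoglycaemic KO values, so no difference in Gpc3 is read from these averages.

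Of the Afp repressors, Zbtb20, a zinc finger protein, had levels of 1.26, 1.42, 1.102, 0.49, 1.504, 0.76 and 1.02 in hypoglycaemic KO livers, 0.71, 0.66 and 0.79 in normoglycaemic KO livers, and 1.30, 1.05, 0.89, 0.83 and 0.89 in wild-type livers. The 3 normoglycaemic KO livers lay below all 5 wild-type livers, and the hypoglycaemic KO livers reached both higher and lower than either group. Differences from wild type were 0.09 ± 0.16 (SE; adjusted p = 0.806) in hypoglycaemic KO livers and −0.27 ± 0.20 (adjusted p = 0.965) in normoglycaemic KO livers by limma. Hypoglycaemic minus normoglycaemic KO was 0.36 ± 0.19 (adjusted p = 0.310).

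Zhx2, a homeobox repressor, was well above background on 1 of 15 arrays, wild-type replicate 5. Its only probe had 3.0 to 7.4 signal units on the other 14 arrays and 253 on that one. It failed the requirement of 3 such arrays, so it entered no test and its groups are not compared.

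**Figure D2:**
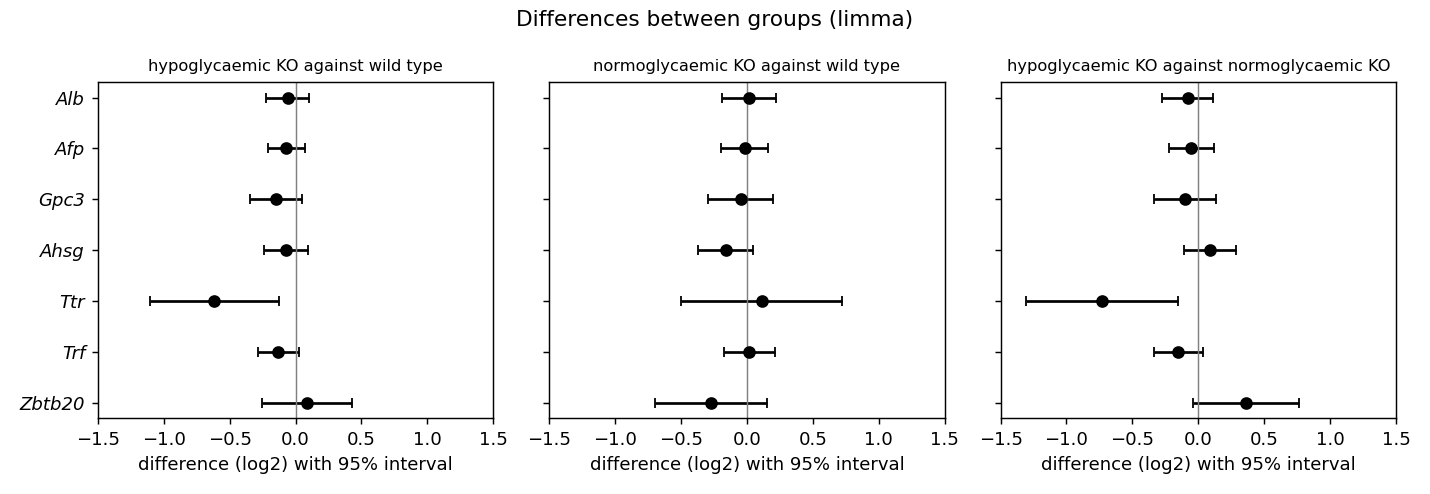
Differences of the 7 measurable members in log2 (limma) with 95% intervals, for hypoglycaemic KO (left panel) and normoglycaemic KO (middle) against wild type and for hypoglycaemic against normoglycaemic KO (right). The Ttr intervals of −1.11 to −0.13 and −1.30 to −0.15 leave out 0 but did not pass after adjustment over all genes.

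By the rule of an adjusted p under 0.05, 0 of 7 members passed for hypoglycaemic KO against wild type, where 0.0181% of all genes did. The count was 0 of 7 for normoglycaemic KO against wild type (0% of all genes), for hypoglycaemic against normoglycaemic KO (0.0544%) and for both KO groups against wild type (0.00726%). At an unadjusted limma p under 0.05, 1 member (Ttr) passed for hypoglycaemic KO against wild type, against 18.7% of all genes, and 0 for normoglycaemic KO against wild type, against 4.79%. For hypoglycaemic against normoglycaemic KO it was again 1, Ttr, against 19.3%, and for both KO groups it was 0, against 6.56%. Groups did not overlap, with the first lower, for 2 of 7 members, Ttr and Trf, between hypoglycaemic and normoglycaemic KO (3.96% of all genes) and for 1 of 7, Zbtb20, between normoglycaemic KO and wild type (1.53%). With the first higher the counts were 0 of 7 in both (5.11% and 2.3%). Between hypoglycaemic KO and wild type 0 of 7 were apart in either direction, against 0.748% of all genes lower and 0.714% higher.

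The balance of fetal and adult albumin genes was read as Afp minus Alb within each array, which cancels the scaling. Hypoglycaemic KO livers gave −0.53 ± 0.09 (SD, n = 7), normoglycaemic KO livers −0.55 ± 0.04 (n = 3) and wild-type livers −0.52 ± 0.04 (n = 5). Only the change of this value between groups is compared, since the 2 probes differ in brightness per molecule. Spot signals lay at 74.7 to 87.0% of the saturation value for Alb and 55.0 to 71.9% for Afp. Whether such brightness limits the change as a measure of the mRNAs was not tested. Hypoglycaemic KO differed from wild-type livers by −0.008 (2-sided exact permutation test over 792 splits, p = 0.893), and normoglycaemic KO by −0.035 (56 splits, exact p = 0.232, where the smallest possible is 0.0179). Between hypoglycaemic and normoglycaemic KO livers the difference was 0.027 (exact p = 0.625). Over these 3 comparisons the adjusted p-values were 0.893, 0.696 and 0.893.

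Stability was described by the SD between pups within groups, pooled over the 3 groups. It was 0.092 for Afp, 0.106 for Trf, 0.114 for Alb, 0.119 for Ahsg, 0.149 for Gpc3, 0.279 for Zbtb20 and 0.409 for Ttr on the log2 scale, against a median of 0.249 over 26561 genes. Bright genes vary less in general, and the median was 0.101 among the 50 brightest genes, which include Alb, Ahsg, Trf and Afp. Those 4 ranked 17th, 14th, 20th and 28th from the most variable of the 50, and 35th, 31st, 39th and 50th among the 100 brightest, whose median was 0.0913. The median was 0.0814 among the 500 brightest. Ttr, also bright, spanned a 3.51-fold range over the 15 pups, and Afp a 1.28-fold range.

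**Figure D3:**
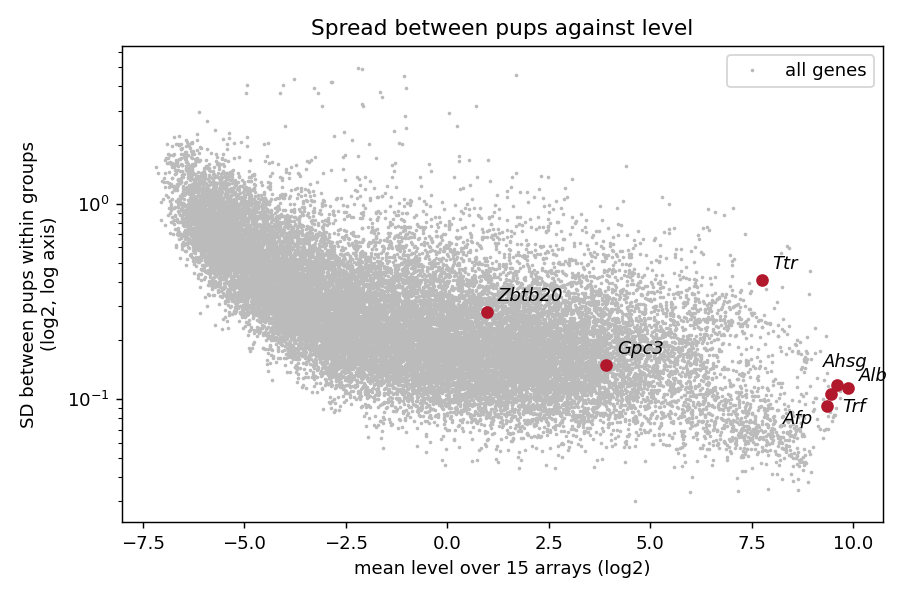
SD between pups within groups (log2, log axis) against the mean level over 15 arrays, for all genes in grey and the 7 measurable members in red. Alb, Ahsg, Trf and Afp lie at 0.092 to 0.119 among other bright genes, and Ttr lies at 0.409.

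No member's spread passed a Levene-type limma test of hypoglycaemic KO against wild type. Of 7 members 0 passed for hypoglycaemic KO against wild type, against 0.0544% of all genes, and 1 did at an unadjusted p under 0.05, against 8.79%. That member was Gpc3, with an SD of 0.08 in hypoglycaemic KO livers (n = 7) and 0.229 in wild-type livers (n = 5; unadjusted p = 0.0102, adjusted p = 0.429, limma). Alb had an SD of 0.086 in hypoglycaemic KO, 0.063 in normoglycaemic KO and 0.160 in wild-type livers (adjusted p = 0.745 for hypoglycaemic KO against wild type, limma).

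No member spot was saturated. Mean spot signals were 74.7 to 87.0% of the saturation value for Alb, 60.7 to 76.7% for Ahsg, 55.0 to 71.9% for Afp and 53.7 to 68.4% for Trf, against 11.5 to 42.2% for Ttr. Before scaling, the SD of Alb was 0.051, less than the SD of 0.132 of the logarithm of the 75th percentile itself. The Alb level correlated with that logarithm at r = −0.87 over the 15 arrays, and the unscaled Alb signal at r = 0.42. For Afp the SD was 0.089 before and 0.092 after scaling, with r = −0.69 after it, and for Ttr 0.364 before and 0.409 after, with r = −0.34. A level is made by subtracting that logarithm, which varied more than the unscaled Alb signal, so a negative r is built into the Alb level. The r therefore does not tell what made the Alb level vary between pups. Before scaling, hypoglycaemic KO minus wild type was −0.057 for Alb, −0.065 for Afp and −0.613 for Ttr, against −0.061, −0.069 and −0.618 as levels. Normoglycaemic KO minus wild type was 0.037, 0.002 and 0.129 before scaling, against 0.018, −0.017 and 0.111 as levels. The unscaled differences were given no test. In the authors' deposited table, Alb took 3 distinct values over the 15 arrays, from 19.15 to 19.26, Ahsg 7 and Afp 9, while Ttr took 15, from 16.46 to 18.31. The processed Alb signals differed on all 15 arrays, from 661154 to 784774. The repeated deposited values therefore do not measure stability between pups, and what made them repeat was not tested.

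**Figure D4:**
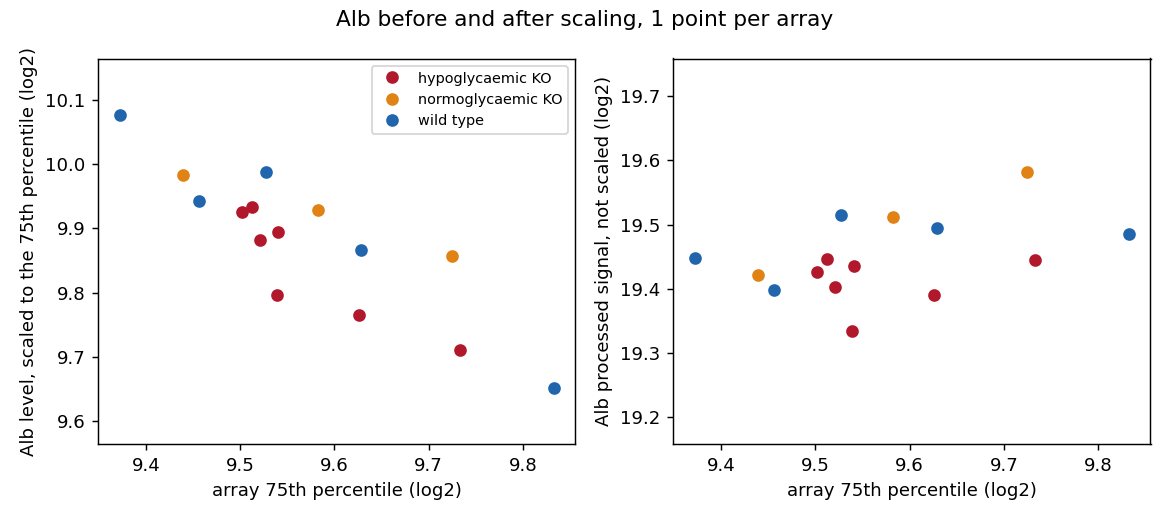
Alb on each of the 15 arrays against the logarithm of the array's 75th percentile, as the level scaled to it (left; r = −0.87) and as the unscaled processed signal (right; r = 0.42), in log2 on axes of equal height. The scaled levels descend with the percentile in all 3 groups, and the unscaled signals span 1.19-fold.

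Afp was printed in 10 spots on each array, which gives the measurement error within an array. The SD of its single spots was 0.089 (146 spots, 4 marked as outliers left out; 0.068 to 0.105 per array), so that the mean over an array's spots had an SE of 0.029. The SD of that mean between pups was 0.092.

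Blood glucose was set against the levels within groups, as a common slope per 10 mg/dl. Ttr had a slope of 0.36 ± 0.08 (SE, log2 per 10 mg/dl; 95% interval 0.19 to 0.53; adjusted p = 0.0644, limma), at position 248 of 27554 genes by p. Among hypoglycaemic KO pups, the 4 with 9 to 16 mg/dl had Ttr levels of 6.82 to 7.35 and the 3 with 26 to 33 mg/dl had 7.74 to 7.80. Zbtb20 had a slope of −0.18 ± 0.07 (adjusted p = 0.225), with levels of 1.102 to 1.504 in the 4 pups at 9 to 16 mg/dl and 0.49 to 1.02 in the 3 at 26 to 33 mg/dl. The slopes of Alb, Trf and Afp were 0.06, 0.06 and 0.04, and those of Gpc3 and Ahsg 0.01 and −0.02. In all 0 of 7 slopes passed, as did 0% of all genes, while 2 had an unadjusted p under 0.05, against 18.1% of all genes. With the authors' deposited log2 values the Ttr slope was 0.36 and passed (adjusted p = 0.0451, limma), as it did after normexp and quantile normalization (adjusted p = 0.0373) and with the filter at 12 arrays (adjusted p = 0.0433). In these fits 292, 481 and 333 genes passed, or 1.09%, 1.75% and 1.45% of those tested. In the other 9 of 12 alternatives the Ttr slope did not pass. It was 0.36 with the replicate block (adjusted p = 0.391, limma) and 0.36 without the 3 libraries richest in pancreas markers (adjusted p = 0.244). With the array median as scale it was 0.37 (adjusted p = 0.104). It was 0.40 within slide 1 (adjusted p = 0.146) and 0.44 within slide 2.

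**Figure D5:**
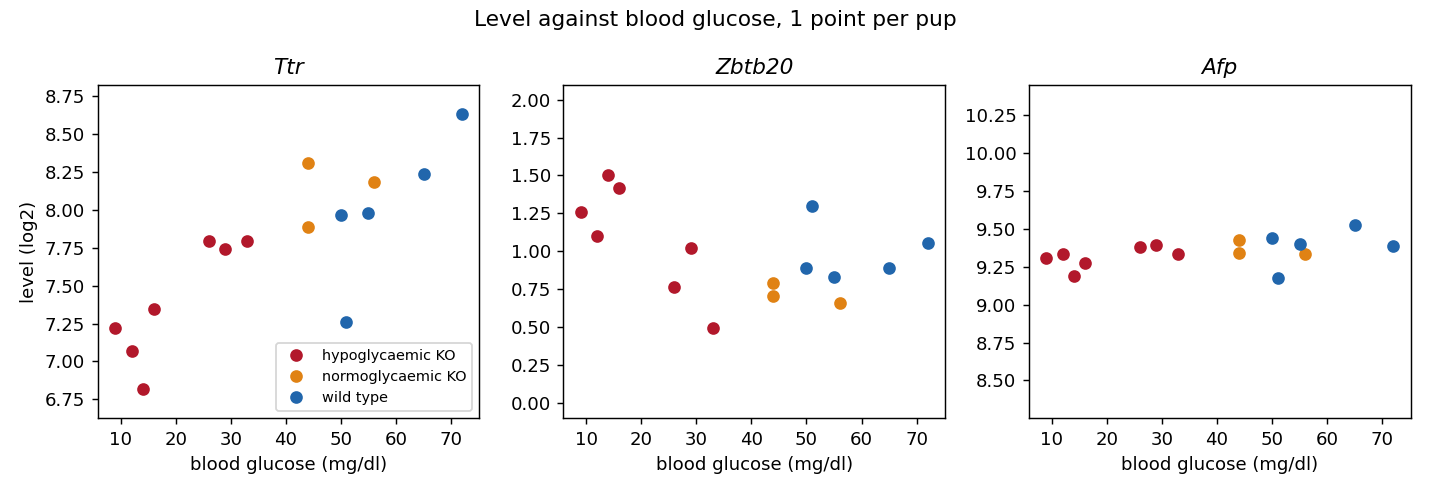
Levels of Ttr, Zbtb20 and Afp (log2) against blood glucose (mg/dl), 1 point per pup, with y axes of equal height. Ttr levels of 6.82 to 7.35 belong to the 4 pups at 9 to 16 mg/dl, and wild-type replicate 1 at 51 mg/dl has 7.26.

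The arrays lay on 2 slides that both held all groups. The Ttr difference of hypoglycaemic KO from wild-type livers was −0.59 within slide 1 (4 and 2 pups, adjusted p = 0.761, limma). Within slide 2 it was −0.61 (3 and 3 pups). The 2 wild-type pups of slide 1 had the lowest and the highest wild-type Ttr levels, 7.26 and 8.63. Trf gave −0.02 and −0.19 on slides 1 and 2, and Gpc3 −0.06 and −0.19. For the other 4 genes the sign differed between slides 1 and 2, with 0.03 and −0.09 for Alb, 0.03 and −0.14 for Afp, 0.04 and −0.13 for Ahsg, and −0.11 and 0.23 for Zbtb20.

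Around the members, the other plasma proteins of the mature liver gave no passing gene. Of 41 measured, 36 lay below 0 and 5 above for hypoglycaemic KO against wild type, with a median of −0.11, where the median over all genes was 0.02 and 52.7% of genes lay above 0. For normoglycaemic KO against the same wild-type livers it was again 36 below and 5 above, with a median of −0.07. The smallest p-values belonged to Afm, Itih1 and C3. Afm, the afamin gene of the albumin family, averaged 4.06 ± 0.31 in the 7 hypoglycaemic KO livers, 4.70 ± 0.20 in the 3 normoglycaemic KO livers and 4.74 ± 0.47 in the 5 wild-type livers (SD). Hypoglycaemic KO minus wild type was −0.68 (adjusted p = 0.118, limma). Itih1, an inter-alpha-trypsin inhibitor heavy chain, differed by −0.51 (adjusted p = 0.110), and complement C3 by −0.43 (adjusted p = 0.130). Gc, the vitamin D carrier of the albumin family, differed by −0.13 (adjusted p = 0.384).

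Of 5 other measured genes that handle retinol and thyroid hormone around transthyretin, 0 passed for hypoglycaemic KO against wild type. Lrat, which esterifies retinol for storage in stellate cells, differed by −1.16 (adjusted p = 0.0717, limma). Rbp4, which travels in plasma bound to transthyretin, differed by −0.03 (adjusted p = 0.817). The summed stellate cell and fibroblast markers, which include Lrat, were 116 to 187 times the 75th percentile in hypoglycaemic KO, 119 to 158 times in normoglycaemic KO and 128 to 160 times in wild-type livers, and their part in the Lrat value was not tested.

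The other fetal liver genes numbered 21, with 12 below and 9 above 0 for hypoglycaemic KO against wild type, a median of −0.07 and 0 passing. Igf2, the fetal growth factor, differed by −0.57 (adjusted p = 0.149, limma), Peg3 by 0.68 (adjusted p = 0.202) and Sox4 by −0.23 (adjusted p = 0.184). Of 5 measured genes reported as under Zhx2 control in mouse liver, 0 passed, and H19, Lpl and Cyp4a12a differed by −0.14, −0.32 and −0.33. Of the 3 ZHX relatives 0 passed, with Zhx1 at −0.13, Zhx3 at 0.31 and Homez at 0.14.

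Of 20 further regulators of Afp and Alb, 9 lay above and 11 below 0, and 0 passed. Cebpb, a basic leucine zipper factor, differed by 0.62 (adjusted p = 0.117, limma), Hnf4a, a nuclear receptor of hepatocyte identity, by 0.41 (adjusted p = 0.159), and Nfic by −0.26 (adjusted p = 0.154), all for hypoglycaemic KO against wild type. Of 17 measured genes of iron handling 0 passed, with Ireb2 at 0.53, Steap3 at −0.67 and Hjv at 0.40. Of 5 other glypicans 0 passed, between −0.15 and 0.11.

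The genes whose levels followed Afp most closely over the 15 arrays, after group means were taken out, were Apoa2 (r = 0.92), Trf (0.89), Gt(ROSA)26Sor (0.89), Glo1 (0.87) and Zfp967 (0.86) of 17785 genes. For Alb they were Map6d1 (r = 0.96), Sgsm3 (0.93), Med16 (0.92), Dennd5b (0.92) and Nlgn3 (0.92). Alb and Afp followed each other at r = 0.79 as levels and 0.63 before scaling. Alb and Trf did so at 0.89 and 0.67, and Zbtb20 went with Afp at −0.61 as levels but 0.26 before scaling. All levels of an array share its scaling factor, so these values are descriptions of the 15 arrays.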

How the data were processed

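Liver RNA of 15 pups was measured on Agilent 1-colour arrays. The intensity values were made with Agilent Feature Extraction 10.10 on mm9 coordinates, per the file headers. By these, background was subtracted and trends were removed inside each array, with nothing done to align arrays. The deposited log2 values were made by the authors with limma, per the submitters' processing notes, with the scale between arrays not given in the sources used here. They served as an alternative.

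Levels were log2 gProcessedSignal after division by its 75th percentile among the non-control probes of an array, with outlier spots (176 to 546 per array) left out. Probes marked well above background in 3 or more of the 15 arrays were kept (41153), and the brightest stood for a gene. A mean for each group was fitted with limma 3.58.1 in R 4.3.3 (12 residual degrees of freedom), with Benjamini-Hochberg adjustment over 27554 genes and a threshold of 0.05. Further fits took absolute deviations or a slope on blood glucose. Fits were tested on simulated data with 200 changed genes for hypoglycaemic KO against wild type. Of the 1.5-fold, 2-fold and 4-fold changes, 41.8%, 74.6% and 89.4% were called. The number of arrays limits the precision.

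Named genes were the 8 members, per list up to 3 other genes with the smallest p for hypoglycaemic KO against wild type, and the 5 most like Afp and Alb. Rbp4 was named after its values were seen, and part of one list is not reported here. The members and lists were chosen with earlier results of these data known. Deviations of same-numbered pups from their group means correlated at r = 0.12 to 0.32 between normoglycaemic KO and wild type (3 pairs). The values were −0.17 to 0.27 between hypoglycaemic KO and wild type (5 pairs) and −0.15 to 0.16 between the KO groups (3 pairs). Whether these pairings differ was not tested. Alternatives changed scaling, filter, probe choice, values, slides and libraries.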

Additional observations from a re-analysis of the deposited data

Results flagged for a closer look

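Zhx2 had a level of −1.39 in wild-type replicate 5, while the next highest wild-type library lay at −6.57. The gap was 0.757 of the group's range. It was the 1 value marked among 18 group values examined for a library far from its group, and chance marks about 1 in 20. Within that spot the pixels had an SD of 65.3% of their mean, against 28.4 to 39.2% on the other 14 arrays, and Feature Extraction did not mark the spot as non-uniform. Of the 8 neighbouring spots on that array, 2 were brighter than on all other arrays, the probe of Cxcl14 and one of a transcript on chromosome 3. The cause was not tested.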

How the results depend on the processing

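Over 12 alternatives, 0 of 7 members passed for each group comparison. Genes passing for hypoglycaemic KO against wild type (5) were 24 with the array median as scale, 50 with the authors' values, 2 without a filter, 69 with normexp and quantile, 62 with the strict filter, and 0 with the replicate block, within slide 1, within slide 2 and without the 3 pancreas-rich libraries (the last chosen after seeing the data). For normoglycaemic KO against wild type (0) they were 1 with the median, 2 with the authors' values, 2 with quantile scaling, 1 with the replicate block, 1 with the strict filter and 3 within slide 2. For hypoglycaemic against normoglycaemic KO (15) they were 8, 31, 9 (mean over probes), 4 (no filter), 124 (normexp), 82 (strict filter), 3 (slide 2) and 0 with the replicate block, slide block, slide 1 or without the pancreas-rich libraries. For both KO groups (2) they were 1 with the mean over probes, with quantile scaling and without the pancreas-rich libraries, and 0 with no filter, either block or either slide. The replicate block changed no call of a member. Leaving out 1 library gave 0 to 750, 0 to 2, 0 to 947 and 0 to 7 genes in the 4 comparisons, the most without wild-type replicate 1 for the first (138 without the library labelled hypoglycaemic KO replicate 2) and without hypoglycaemic KO replicate 4 for the third. Members passing for the slope were 1 (Ttr) with the authors' values, normexp or the strict filter (292, 481 and 333 genes) and 0 to 1 with 1 library left out (Ttr among 981 genes without hypoglycaemic KO replicate 7), and 2 (Afp and Ttr, among 4712 genes or 17.1%) passed for spread within slide 1, where wild type has 2 pups.

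Signs turned for small differences, and the cause was not tested. Within slide 1 hypoglycaemic KO minus wild type was 0.0327 for Alb, 0.0339 for Afp, 0.0426 for Ahsg, −0.1078 for Zbtb20 and 0.0012 for Afp minus Alb (0.0120 with normexp). Normoglycaemic KO minus wild type was −0.0169 (median) and −0.0192 (slide 2) for Alb, −0.0160, −0.0289 (mean over probes) and −0.0246 (slide 2) for Trf, and 0.1844 (mean over probes), 0.0127 (replicate block) and 0.0791 (slide 1) for Gpc3. For Afp it was 0.0255 (authors' values), 0.0186 (normexp), 0.0464 (quantile), 0.0008 (replicate block), 0.0045 (slide block), 0.0587 (slide 1) and 0.0010 (without the pancreas-rich libraries). For Afp minus Alb it was 0.0255 (authors' values) and 0.0186 (normexp), the same as for Afp alone. Alb did not differ between these groups in those fits, so these values repeat those of Afp and say nothing more about the balance. The Gpc3 slope was −0.0065, −0.0081, −0.0064 (quantile), −0.1271 (replicate block) and −0.0411 (slide 1), and the Ahsg slope 0.0195 (slide 2) and 0.0248 (without the pancreas-rich libraries). With 1 library left out, hypoglycaemic KO minus wild type ranged from −0.0282 to 0.0198 for Afp minus Alb. Normoglycaemic KO minus wild type ranged from −0.0693 to 0.0184 for Afp, −0.0449 to 0.061 for Alb, −0.1042 to 0.0126 for Gpc3, −0.0433 to 0.0605 for Trf and −0.0781 to 0.2645 for Ttr. The slopes ranged from −0.0179 to 0.06 for Gpc3 and −0.0414 to 0.0036 for Ahsg. Under quantile normalization Alb had no difference to test for normoglycaemic KO against wild type. Signal at background left Zhx2 untested, and whether brightness limits Alb, Ahsg, Afp or Trf was not tested.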
